A study of Mus musculus with 82 samples.

Results

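Klra17, Klra5 and Klra8, 3 members of the mouse Klra family of lectin-like receptors, were described across 82 Affymetrix arrays of peritoneal oil granulomas. The members were taken by gene symbol, which gave 1 probe set each of 22626 probe sets that are not controls and 11 that are listed for any Klra gene. They were chosen by their deposited log2 values over days, for a rise in both tissues, so their change over days is given below as levels, with no test. All mice were BALB/c.iMycEμ, a strain in which a Myc gene sits in the immunoglobulin heavy chain locus beside its Eμ enhancer and is therefore driven in B-lineage cells. They were at least 8 weeks old and received 0.5 ml of pristane, a mineral oil, into the peritoneal cavity; no group without pristane or without the Myc insertion was analysed here. From frozen granuloma sections, cells positive for methyl green pyronin, a stain of plasma cells, were taken by laser microdissection ("captured plasma cells", which the labels call nascent tumor cells), and undissected sections gave "whole granuloma". In study 2, captured plasma cells (30 arrays) and whole granuloma (15 arrays) each came from 3 specimens at days 7, 17, 33, 49 and 105. In study 1, captured plasma cells (25 arrays) came from 4, 4, 3, 3 and 1 specimens at days 7, 17, 33, 46 and 104, and whole granuloma (12 arrays) from 2, 2, 3 and 1 specimens at days 7, 17, 33 and 104. The labels do not say whether a specimen code is 1 mouse, and p-values measure the spread between codes. In study 2 the labels add a letter to the code, which was not used here. The letter differs between arrays or tissues of some codes, such as code 1 of days 7, 33 and 105. A "specimen" below is thus a code, not always 1 lettered piece.

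The Klra genes encode the Ly49 receptors, type II membrane proteins of the C-type lectin family that lie in the natural killer (NK) gene complex on chromosome 6 and mostly bind MHC class I molecules. Inhibitory members carry a cytoplasmic motif that recruits phosphatases, and activating members signal through the adaptor DAP12, encoded by Tyrobp. Klra17 encodes Ly49Q, an inhibitory receptor known from plasmacytoid dendritic cells and other myeloid cells rather than from NK cells. Klra5 encodes Ly49E, an inhibitory receptor of fetal NK cells and of some T cells. Klra8 encodes Ly49H, the activating receptor by which NK cells of C57BL/6 mice recognise cells infected with murine cytomegalovirus, and standard BALB/c mice lack the gene.

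The start regions of the 3 genes are shown because they are close relatives in sequence while the levels of the 3 genes in the granulomas differed widely. Since standard BALB/c mice lack Klra8, its level need not reflect its start region. Whether the mice used here carry the gene was not tested. In RefSeq (GRCm38.p6, a C57BL/6J assembly, so not the BALB/c sequence) Klra17 lies directly beside Klra5 among coding genes, and Klra8 lies between Klra4 and Klra9. Each window below runs 5′ to 3′ from 250 bases before to 50 bases after the annotated start, on the minus strand (Klra17 chr6:129876623-129876922, Klra5 chr6:129913175-129913474, Klra8 chr6:130129849-130130148). Capitals mark the longest stretch common to all 3.
Klra17: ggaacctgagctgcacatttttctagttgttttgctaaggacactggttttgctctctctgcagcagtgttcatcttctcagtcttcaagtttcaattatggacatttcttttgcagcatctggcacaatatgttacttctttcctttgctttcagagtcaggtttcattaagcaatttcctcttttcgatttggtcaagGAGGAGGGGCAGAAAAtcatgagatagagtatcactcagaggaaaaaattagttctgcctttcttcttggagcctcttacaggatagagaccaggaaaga
Klra5: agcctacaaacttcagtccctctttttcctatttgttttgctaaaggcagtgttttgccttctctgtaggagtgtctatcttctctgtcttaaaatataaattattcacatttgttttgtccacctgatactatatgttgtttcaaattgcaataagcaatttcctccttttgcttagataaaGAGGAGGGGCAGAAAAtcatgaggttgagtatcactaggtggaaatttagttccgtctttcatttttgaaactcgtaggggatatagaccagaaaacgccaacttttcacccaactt
Klra8: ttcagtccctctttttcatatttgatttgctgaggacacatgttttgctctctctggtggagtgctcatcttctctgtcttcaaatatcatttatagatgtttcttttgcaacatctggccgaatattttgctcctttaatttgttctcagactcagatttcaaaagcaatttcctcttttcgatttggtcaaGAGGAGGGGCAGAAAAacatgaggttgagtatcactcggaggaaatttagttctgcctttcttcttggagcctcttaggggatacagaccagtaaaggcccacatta
The 16-base stretch GAGGAGGGGCAGAAAA begins 50, 67 and 57 bases before the start of Klra17, Klra5 and Klra8. On either strand it occurs in 7 of 32851 start windows of RefSeq (0.0213%), which belong to 6 of the 11 Klra genes with a window and to 0 other genes. A further common stretch of 13 bases, AAGCAATTTCCTC, lies upstream of it and occurs in 10 windows (0.0304%), which belong to 7 Klra genes and 2 others. Over the 300 bases of a window, Klra17 matched Klra8 at 82% of positions and Klra5 at 72%, and Klra5 matched Klra8 at 76.7%. Each of the 3 was matched more closely by another Klra gene: Klra17 by Klra4 (82.3%), Klra5 by Klra6 (83.3%) and Klra8 by Klra4 (86.3%). Other pairs were lower, such as Klra17 with Klra10 (55%), so the likeness is not particular to the 3. Of the motifs counted on both strands, GAGGAA (the core bound by PU.1-type factors) occurred 2, 1 and 2 times in Klra17, Klra5 and Klra8 and in 28.3% of all windows, and its match on the opposite strand lies inside AAGCAATTTCCTC. GCAAT (of C/EBP-type sites) occurred 1, 3 and 1 times and in 26.4% of windows; it too overlaps that stretch. TATAAA was found once in Klra5 and in Klra8 only (13.6% of windows) and AGATAA once in Klra5 only (11.2%). TGTGGT (RUNX; 16.8%), GAAA-NN-GAAA (interferon response element; 3.44%) and CACGTG (E-box; 7.15%) had no match in the 3 windows. These are matches of letters, not measured binding sites.

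The arrays were not on a common scale. Array medians of the deposited log2 values were 7.112 to 7.334 in whole granuloma and 5.304 to 5.641 in captured cells of study 2, and 5.723 to 5.82 and 4.965 to 5.104 in study 1, so tissues are compared on quantile-normalized values and days within a tissue on deposited values. The difference between 3′ and 5′ control probe sets, larger where RNA is shorter, was 1.61 ± 0.132 (SD, 15 arrays) in whole granuloma and 4.14 ± 0.902 (30 arrays) in captured cells of study 2, and 3.19 ± 0.364 (12 arrays) and 4.49 ± 0.684 (25 arrays) in study 1. The labelled tissues were set beside marker lists (limma, adjusted p under 0.05). Of 16 plasma cell genes, 6 were higher and 2 lower in captured cells than in whole granuloma in study 2. In study 1 these counts were 5 and 0. Over all probe sets, 35.6% were higher and 29.8% lower in study 2 (65.5% in either direction), and 30.4% and 22.9% in study 1 (53.3%). Plasma cell genes were thus called higher at about the rate of all probe sets, and called lower less often. Of 23 macrophage genes, 1 was higher and 14 lower in study 2, and 0 higher and 18 lower in study 1. The macrophage gene Csf1r, which encodes the receptor for macrophage colony-stimulating factor, stood at percentile 96.1 or above among the probe sets in every group of captured cells. In bulk samples like these, fewer cells of a type and less RNA per cell cannot be told apart. One array, the second of captured code 2 of day 49 in study 2, had the highest median of its tissue (5.641) and stood apart for several Klra probe sets, as given below.

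Klra17 had the widest range of the 3 genes: it went from the middle of the array's probe sets at day 7 to near the top by day 105. In whole granuloma of study 2 its log2 values were 5.84, 6.80 and 6.54 at day 7 for codes 1, 2 and 3, and 6.51, 6.96 and 6.51 at day 17. They were 10.38, 9.82 and 7.93 at day 33, 9.19, 9.48 and 9.24 at day 49, and 12.31, 12.64 and 13.26 at day 105. Days 7 and 17 overlapped, every specimen of days 33 and 49 lay above both, and every specimen of day 105 lay above all others. The mean rose from 6.39 ± 0.495 (SD, n = 3) to 12.74 ± 0.482 (n = 3), a log2 change of 6.34 or 81.1-fold, and the mean percentile from 39.3 to 98.1.

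Captured plasma cells of the same specimen codes gave values of 5.14, 6.71 and 6.29 at day 7, 6.78, 6.21 and 9.27 at day 17, and 11.07, 8.65 and 9.76 at day 33. At day 49 they were 8.36, 7.47 and 8.97, and at day 105 11.83, 11.95 and 12.83. Neighbouring days overlapped up to day 49, code 3 of day 17 was already within the range of day 33, and all specimens of day 105 again stood above every earlier one. From day 7 to day 105 the mean went from 6.05 ± 0.816 (SD, n = 3) to 12.20 ± 0.543 (n = 3), a change of 6.16 or 71.4-fold. In both tissues of study 2 the order of the means was day 7, 17, 49, 33 and 105. The gap between days 49 and 33 was 0.07 in whole granuloma, within the spread of 1.28 between specimens, and 1.56 in captured cells, where the groups overlapped.

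**Figure D1:**
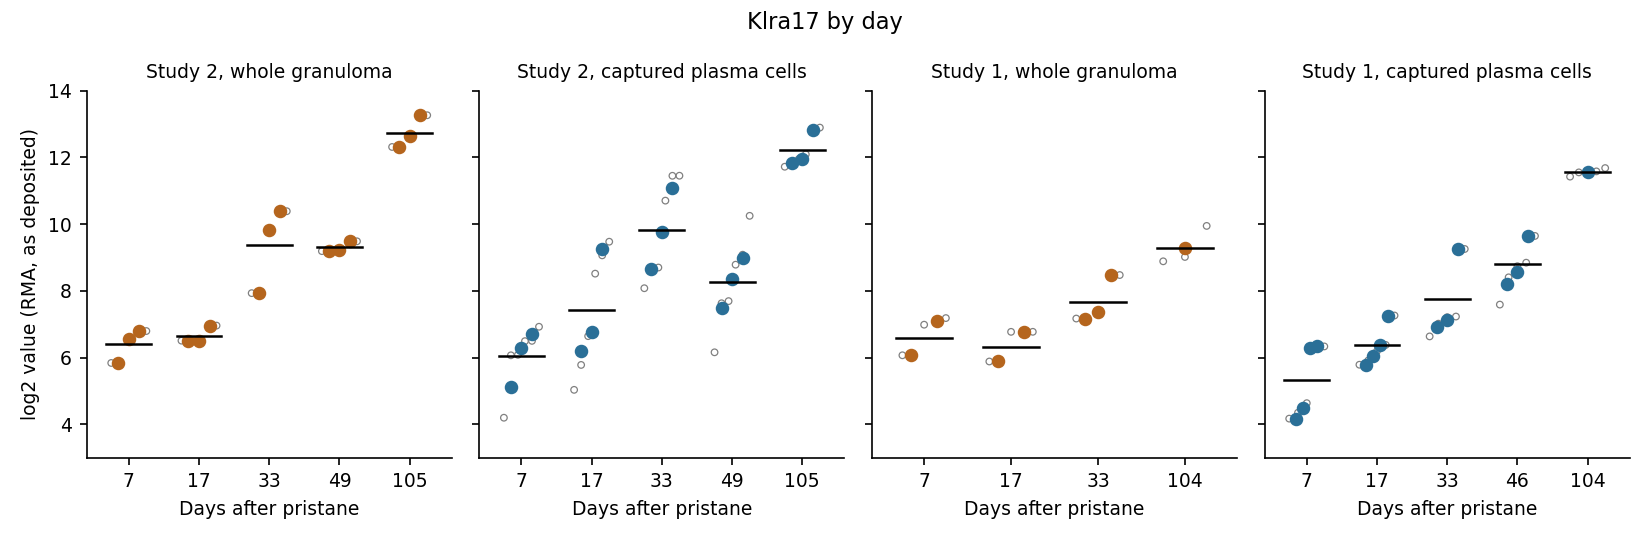
Klra17 log2 values (as deposited) by day after pristane, in 4 panels of study and tissue; filled points are specimen averages, open circles single arrays and bars the mean of the specimens. The last day stands above every earlier day in all 4 panels, and the rise is smallest in whole granuloma of study 1.

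In study 1 the last day was again highest in both tissues. Captured cells stood at 6.34, 4.49, 4.17 and 6.28 at day 7 (codes 3, 5, 8 and 003), at 5.79, 7.26, 6.05 and 6.38 at day 17 (codes 3, 4, 11 and 12) and at 7.12, 6.92 and 9.25 at day 33 (codes 5 and 14 and an array without a code). At day 46 they stood at 8.22, 9.64 and 8.57 (3 further codes), and the single specimen of day 104 (code 4687, 5 arrays) at 11.56, with its arrays between 11.42 and 11.68. Day 17 overlapped day 7, and days 33, 46 and 104 lay above all day 7 specimens. The change to day 104 was 6.23, or 75.3-fold. Whole granuloma of study 1 gave 6.07 and 7.09 at day 7, 6.77 and 5.89 at day 17, 7.17, 7.36 and 8.47 at day 33 and 9.28 at day 104, where the 3 arrays of the single specimen spanned 1.06. Its change from day 7, 2.70 or 6.51-fold, was the smallest of the 4, and the difference from the other 3 was not tested since the rule used these values. For background, the share of all probe sets called higher on the last day than on day 7 (limma, adjusted p under 0.05) was 5.86% in whole granuloma and 2.36% in captured cells of study 2, 0% in whole granuloma of study 1 (where 522 probe sets had an unadjusted p under 0.05) and 0.186% in captured cells of study 1 (0.177% lower).

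Single arrays of some captured specimens of study 2 lay far apart at days 17 to 49 and close together at day 105. At day 49 of study 2 the 2 arrays of each code differed by 1.45, 2.55 and 2.62 for Klra17, and the largest gap, 3.48, was at day 17 (code 1, 5.04 and 8.52). At day 105 the gaps were 0.12 to 0.27. At day 7 they were 0.419, 0.431 and 1.869. At day 33 they were 0.105, 0.744 and 3.37. The scatter was thus large in some specimens and small in others.

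Klra5 was near the bottom of the array in most samples and stood out in 2 specimens only. In study 2 at day 105, captured cells of codes 1, 2 and 3 gave 3.81, 6.79 and 9.62, and whole granuloma of the same codes gave 4.48, 7.04 and 9.29. Code 1 stayed within the range of earlier days, and codes 2 and 3 were high in both tissues and in the same order. The 2 arrays of captured cells read 6.16 and 7.43 for code 2 and 9.40 and 9.84 for code 3. In the other samples of study 2, captured cells ranged from 3.28 to 4.72 and whole granuloma from 4.196 to 4.84. The change of the mean from day 7 to day 105 was 3.03 (8.15-fold) in captured cells and 2.45 (5.46-fold) in whole granuloma, but the SD among the 3 specimens of day 105 was 2.91 and 2.41, and the groups of days 7 and 105 overlapped in both tissues. Without code 3 of day 105 the change was 1.59 in captured cells and 1.27 in whole granuloma.

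In study 1, Klra5 in captured cells was 3.57 ± 0.17 (SD, n = 4) at day 7, 3.84 ± 0.288 (n = 3) at day 46 and 4.56 in the specimen of day 104, whose 5 arrays spanned 1.01. Whole granuloma of that specimen read 3.76, against 3.54 ± 0.018 (n = 2) at day 7. The level of day 104 lay above the day 7 mean by 0.99 and 0.21, and above every day 7 specimen (3.79 and 3.56 at most) in both tissues of study 1. In neither tissue of study 1 did any specimen reach the level of codes 2 and 3 of study 2.

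**Figure D2:**
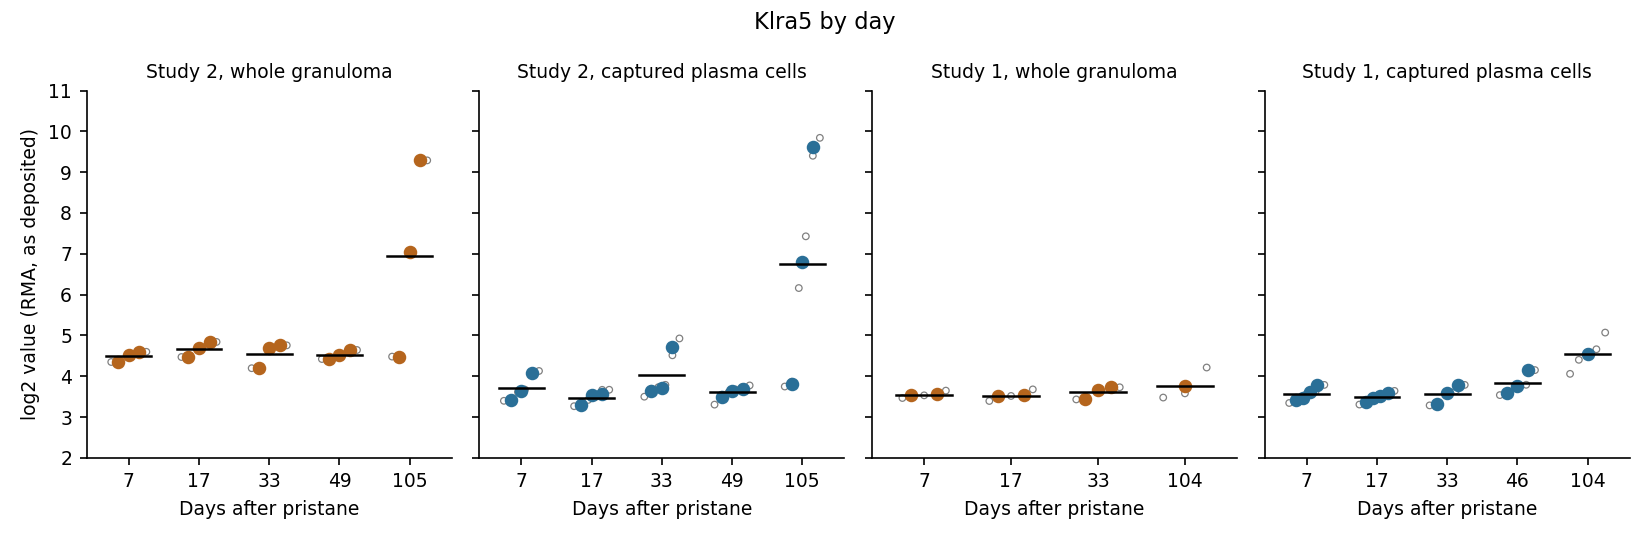
Klra5 log2 values (as deposited) by day after pristane, drawn as for Klra17. In study 2 only 2 of the 3 specimens of day 105 rise above 6, in both tissues, while the third stays between 3.81 and 4.48; specimen averages of study 1 reach 4.56 at most.

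Klra8 hardly moved and lay at the floor of the array, which goes against the rise for which it was grouped with the other 2. Standard BALB/c mice lack this gene, and whether the mice used here carry it was not tested. Its group means ranged from percentile 0.9 to 11.9 of the array. The change from day 7 to the last day was 0.09 in captured cells and 0.16 in whole granuloma of study 2, and -0.04 and -0.07 in study 1. In whole granuloma of study 2 the specimens of every later day (3.82 to 4.13) lay above those of day 7 (3.70 to 3.82), a shift of 0.09 to 0.19 at the floor of the array. A single value was high: the second array of captured code 2 of day 49 read 5.56 while the first array of that code read 2.85. On the same array 1 of the 2 Klra16 probe sets read 7.08 (2.83 on the first array), Klra1 7.14 (2.89) and Klra2 5.64 (3.23). Klra5 read 3.54 (3.73), and Klra17 was lower, 6.16 (8.78). Several Klra probe sets of low level were thus high on that array together.

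The 8 other probe sets listed for Klra genes showed what the family did apart from the members. Those for Klra16 (2), Klra7 (2), Klra1 and for Klra1 with Klra22 reached percentile 35.5 at most in any group. Their differences from day 7 to day 105 in study 2 lay between -0.09 and 0.17, and none of them passed the test. Klra2, which encodes the inhibitory receptor Ly49B of myeloid cells, was called higher at day 105 in captured cells of study 2 (log2 difference 0.97, SE 0.277, adjusted p = 0.0351, limma), where background is 2.36% of probe sets. Its values were 3.23, 3.11 and 3.21 at day 7 and 4.93, 3.17 and 4.36 at day 105, so code 2 did not differ from day 7. In whole granuloma they were 4.07, 4.30 and 4.30 against 5.48, 4.09 and 4.90 (0.60, adjusted p = 0.156). Klra2 was high in codes 1 and 3, Klra5 in codes 2 and 3, and Klra17 in all 3. The Klra2 call was lost without any 1 of codes 1, 2 and 3 of day 7 or codes 1 and 3 of day 105, with adjusted p up to 0.267, and with the 3′ to 5′ difference as a covariate (0.79, adjusted p = 0.149). That difference averaged 4.67 at day 7 and 3.46 at day 105 in these cells.

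One more probe set was well above the floor. It is listed for both Klra3 and Klra9, so its gene is not settled, and it is named here because of its level. In study 2 it stood at 6.03, 6.52 and 6.80 at day 7 and 8.88, 7.42 and 7.31 at day 105 in whole granuloma, and at 6.14, 5.71 and 6.39 and 8.04, 7.63 and 7.60 in captured cells. The groups did not overlap in either tissue, but the log2 differences of 1.42 (SE 0.558, adjusted p = 0.0865) and 1.68 (SE 0.558, adjusted p = 0.0819) did not pass. Its specimens of day 17 (7.60, 7.61 and 9.33 in whole granuloma) had already left the day 7 range. In study 1 the differences were 2.05 in whole granuloma and -0.27 in captured cells, neither past the test.

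**Figure D3:**
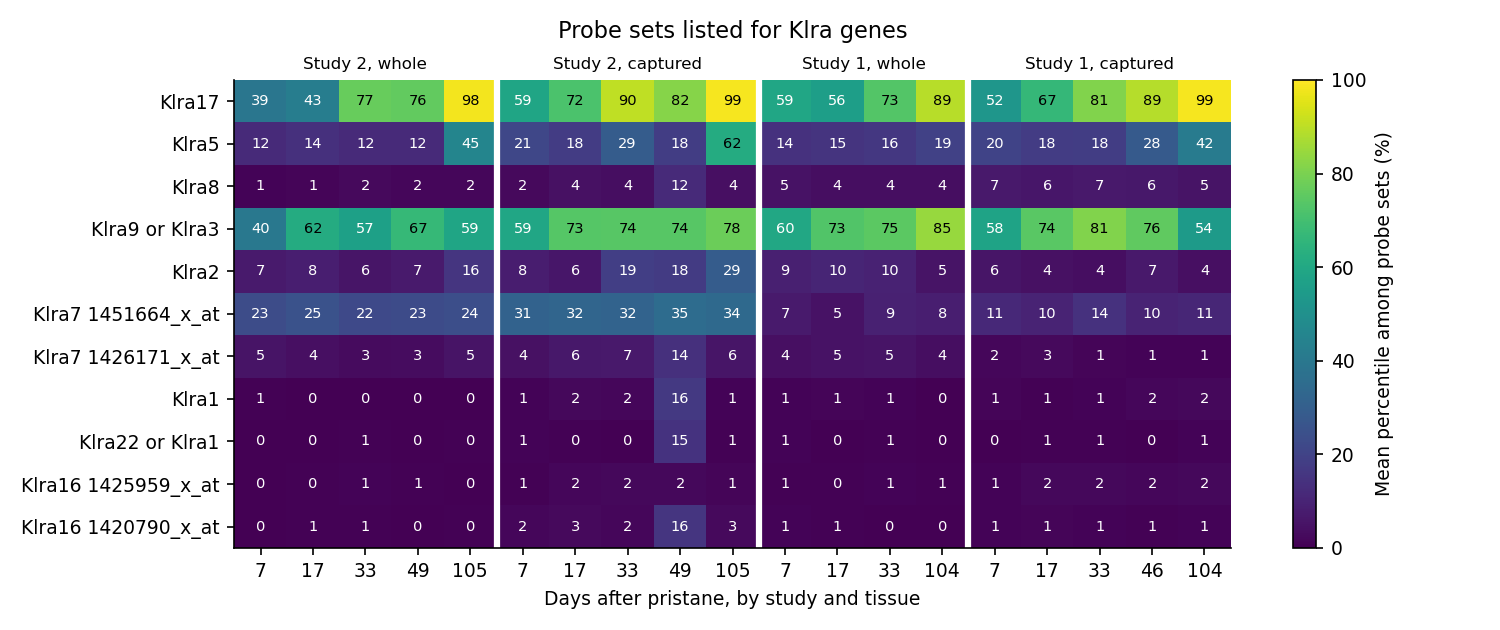
Mean percentile among all probe sets of the 11 probe sets listed for Klra genes, in rows, for the 19 groups of study, tissue and day, in columns. Klra17 climbs to percentile 98.1 or above by the last day in 3 of the 4 series, Klra5 reaches 61.5 at most, and Klra8 never passes 11.9.

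The comparison of tissues asks where the transcripts were richer and did not enter the choice of the genes. In study 2, Klra17 was higher in captured plasma cells than in whole granuloma in 15 of 15 specimens, by 0.004 to 4.325 on the quantile-normalized log2 scale. The fitted difference, a mean over the 5 days, was 1.39 (SE 0.292, adjusted p = 8.68e-05, limma), with means of 8.89 ± 2.18 (SD, n = 15) and 7.50 ± 2.62 (n = 15). The gap was 4.325 in code 3 of day 17 and 3.16 in code 3 of day 33, and only 0.57, 0.33 and 0.21 in codes 1, 2 and 3 of day 105. The call held in all 33 fits that left out 1 specimen code (1.203 to 1.534). Fits without a code of study 1 could not move the difference, which uses groups of study 2 only (1.386 without code 4687). With the 3′ to 5′ difference as a covariate it was 2.21 (adjusted p = 0.029). On the values as deposited, where whole granuloma arrays have far higher medians, it was -0.14 (adjusted p = 0.638).

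In study 1, the 5 specimens with both tissues were all higher in captured cells, by 0.02 to 2.65, and the fitted difference was 0.96 (SE 0.413, adjusted p = 0.0475; 7.80 ± 1.95, SD, n = 15, and 7.16 ± 1.23, n = 8). That call is at the edge: it was lost in 17 of 33 fits without 1 code, and without code 4687, the only specimen of day 104, the difference was 0.40 (adjusted p = 0.415). It was also lost without the replicate block of specimen codes (0.96, adjusted p = 0.0588), with code 5 of day 7 as 2 specimens (0.92, adjusted p = 0.0558) and on the deposited values (0.295, adjusted p = 0.582). Over the 4 times that both studies share (days 7, 17, 33 and 104 or 105, so without day 49 of study 2), the tissue difference was larger in study 2 by 0.58 (SE 0.527, adjusted p = 0.394), and by 1.54 (adjusted p = 0.0237) without code 4687.

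On the quantile-normalized scale, every Klra probe set, also those at the floor, was higher in captured cells in 11 to 15 of 15 specimens of study 2. Klra5 was so in 15 of 15, by 0.09 to 1.77, as was 1 of the 2 of Klra16. The Klra5 difference of 0.575 (SE 0.29) did not pass (limma, adjusted p = 0.0791, with 4.573 ± 1.658 and 3.998 ± 1.201, SD, n = 15 each). It passed with each array centred on its median (1.16, adjusted p = 0.000716), with arrays fitted singly (0.575, adjusted p = 0.0323) and without code 1 or code 3 of day 105 (0.65, adjusted p = 0.00149, and 0.53, adjusted p = 0.00981), and had the other sign on the deposited values (-0.72, adjusted p = 0.0222). In study 1 the Klra5 difference was 0.40 (SE 0.41, adjusted p = 0.433), with 3 of 5 specimens higher in captured cells, and 0.136 (adjusted p = 0.8) without code 4687. Klra8 differed by 0.21 (SE 0.065, adjusted p = 0.00426) in study 2 and 0.10 (SE 0.091, adjusted p = 0.362) in study 1, at levels of 3.07 to 3.33, the floor of the array; on deposited values the sign in study 2 turned (-0.83, adjusted p = 1.56e-13). Of the 3 genes, 2 were thus called higher in captured cells of study 2, where 35.6% of all probe sets were, and 1 in study 1, where 30.4% were. In study 2 the probe sets of Klra16 (0.361 and 0.111), Klra2 (0.347), Klra1 (0.368) and 1 of the 2 of Klra7 (0.48) were called higher too. The other of Klra7 (0.166) and that of Klra1 with Klra22 (0.223) were not. Over the same 4 shared times, the differences between studies for Klra5 (0.26, adjusted p = 0.722) and Klra8 (0.03, adjusted p = 0.876) did not pass, beside 42.3% of probe sets that did (19.7% with the higher value in study 2, 22.6% in study 1).

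**Figure D4:**
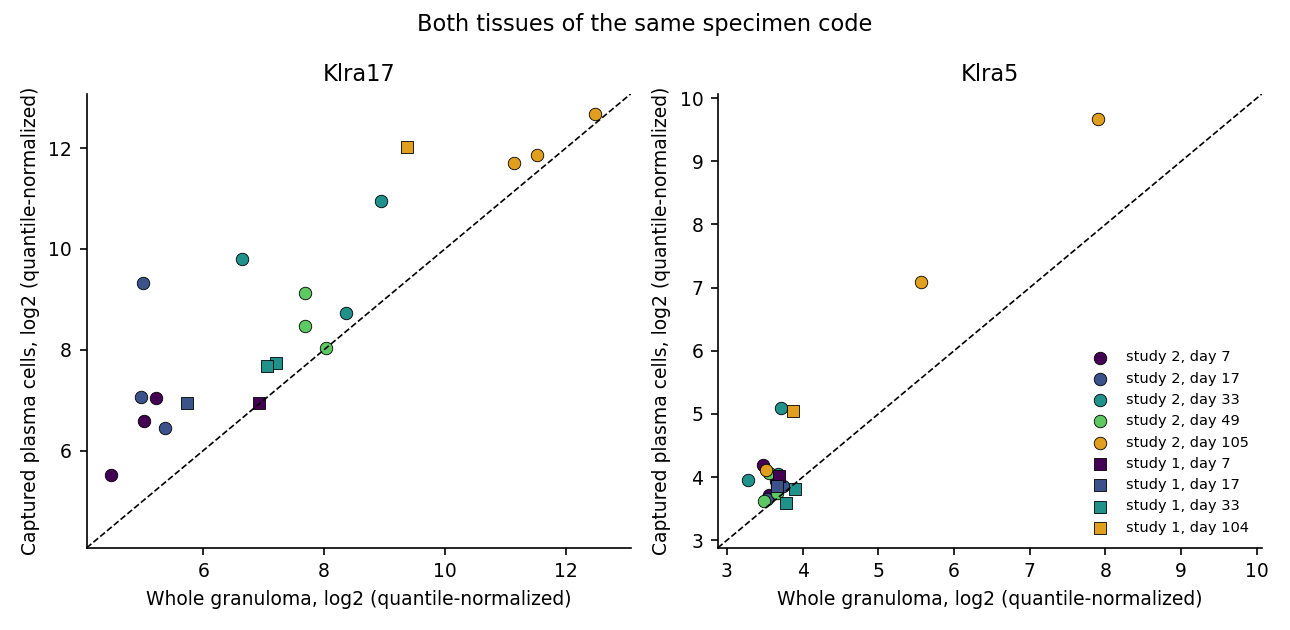
Quantile-normalized log2 values of Klra17 and Klra5 in captured plasma cells (vertical) against whole granuloma (horizontal) of the same specimen code; circles are study 2, squares study 1, colours days, and the dashed line marks equal values. All 15 specimens of study 2 lie above the line for both genes (on the deposited values 4 of 15 do for Klra17 and 1 of 15 for Klra5), and the 2 codes of day 105 with high Klra5 are high in both tissues.

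The probe set listed for Klra3 and Klra9 was higher in captured cells of study 2 by 1.28 (SE 0.243, adjusted p = 1.98e-05). In study 1 it differed by -0.45 (adjusted p = 0.276), with a difference between studies, over the shared times, of 1.85 (adjusted p = 0.000795). In study 2 that call was lost with the covariate of the 3′ to 5′ difference (0.21, adjusted p = 0.819) and on deposited values (-0.43, adjusted p = 0.0828). The value of study 1 was 0.282 without code 4687 and -1.203 (adjusted p = 0.00258) on deposited values. The call on the difference between studies was lost without code 4687 (1.06, adjusted p = 0.0631), on deposited values (0.868, adjusted p = 0.0607) and with the covariate (1.25, adjusted p = 0.0634).

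The other genes of the Ly49 pathway moved little as lists. Of 16 measured lectins of the NK gene complex, day 105 against day 7 in whole granuloma of study 2 gave 1 higher and 1 lower, beside 5.86% higher and 7.84% lower of all probe sets (3098 of 22626 called), and a median of 0.10 beside 0.09. Clec2h rose by 0.39 (adjusted p = 0.0392) and Olr1, the oxidised lipoprotein receptor, fell by 1.58 (adjusted p = 0.0376). In captured cells 0 of 16 were called, beside 922 of 22626 probe sets (4.07%). Of 16 adaptor and signalling genes, 0 were called in either tissue. Tyrobp, which encodes the adaptor of activating Ly49 receptors, was at 11.73 to 12.17 at day 7 and 10.35 to 11.87 at day 105 in whole granuloma (-0.92, adjusted p = 0.143), Fcer1g differed by -0.84 (adjusted p = 0.265) and Hcst, the adaptor DAP10, by 0.33 (adjusted p = 0.495). Tyrobp stood at percentile 82.9 or above in every group, while Klra8 was at the floor.

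Of the 19 MHC class I and peptide loading genes, the ligand side of the receptors, 1 rose in whole granuloma and 0 in captured cells. Over all probe sets, 5.86% rose in whole granuloma and 2.36% in captured cells. H2-T24, a class Ib gene, stood at 5.96, 5.87 and 6.40 at day 7 and 7.87, 8.08 and 7.42 at day 105, so that the groups did not overlap (1.71, SE 0.356, adjusted p = 0.000975). In captured cells it differed by 0.83 (adjusted p = 0.22). The list's median was -0.33 in whole granuloma, opposite in sign to H2-T24, and 0.13 in captured cells.

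Marker lists of cell types that carry Ly49 receptors are given beside the rise of Klra17; their part in it was not tested. Of 19 NK cell genes, 2 rose in whole granuloma of study 2 and 1 in captured cells, beside 5.86% and 2.36% of all probe sets, with medians of 0.35 and 0.17 beside 0.09 and 0.003. Ctsw, the protease cathepsin W of NK and cytotoxic T cells, went from 6.15, 6.62 and 6.56 to 7.94, 8.14 and 10.96 in whole granuloma (2.58, SE 0.576, adjusted p = 0.00196) and from 5.11, 5.02 and 4.59 to 6.43, 6.42 and 8.50 in captured cells (2.22, SE 0.576, adjusted p = 0.0198). The call in captured cells was lost with the 3′ to 5′ covariate (1.60, adjusted p = 0.145) and on quantile-normalized values (2.17, adjusted p = 0.0637). Both tissues were highest in code 3, which also had the highest Klra17 and Klra5. Gzmb, granzyme B, rose in whole granuloma (1.05, adjusted p = 0.0173), where code 1 read 8.18 and codes 2 and 3 read 6.29 and 6.55. The defining NK receptor Ncr1 stayed low: it stood between percentiles 9.7 and 24 in the groups and differed by 0.15 (adjusted p = 0.729) and -0.07 (adjusted p = 0.984). The mean level of the list ranged from 5.77 to 5.88 at day 7 and 5.98 to 6.76 at day 105 in whole granuloma, and from 4.28 to 4.59 and 4.49 to 4.99 in captured cells.

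T cell genes gave 0 higher and 1 lower of 18 in whole granuloma and 0 in captured cells, beside 7.84% lower of all probe sets in whole granuloma. Thy1 fell by 1.26 (adjusted p = 0.0385), against the list's median of 0.42 (0.09 over all probe sets; 0.02 for the list in captured cells), and Cd3e differed by 0.36 (adjusted p = 0.346). The mean of the list was 5.76 to 5.94 at day 7 and 5.85 to 6.79 at day 105 in whole granuloma and 4.54 to 4.59 and 4.41 to 4.78 in captured cells. Of 16 measured plasmacytoid dendritic cell genes, which do not include Siglech, 1 rose and 1 fell in whole granuloma, and 1 rose in captured cells. Over all probe sets, 5.86% rose and 7.84% fell in whole granuloma, and 2.36% rose in captured cells. Ly6d, which also marks B-lineage precursors, went from 7.10, 7.00 and 7.77 to 8.80, 10.56 and 10.43 in whole granuloma (2.64, SE 0.436, adjusted p = 8.44e-05) and from 6.42, 6.52 and 6.71 to 7.81, 9.33 and 9.13 in captured cells (2.204, SE 0.436, adjusted p = 0.00207). In captured cells of study 1 it read 9.25 in the single specimen of day 104 and 5.81 on average at day 7, a difference of 3.44 (adjusted p = 0.00179, with the lone specimen assumed to vary like the others). In whole granuloma of study 1 the difference was 0.78 and did not pass. At day 105 Ly6d, like Klra5, was higher in codes 2 and 3 than in code 1. Atp1b1 of the same list fell in whole granuloma (-1.75, adjusted p = 0.00149). The mean of the list overlapped between days: 7.80 to 7.93 at day 7 and 7.61 to 8.21 at day 105 in whole granuloma, 6.08 to 6.28 and 6.09 to 6.47 in captured cells.

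Macrophage genes that passed the test mostly fell. Of 23 macrophage genes, 5 fell and 1 rose in whole granuloma and 2 fell in captured cells, with a median of -0.60 and -0.12. Over all probe sets, 7.84% fell and 5.86% rose in whole granuloma, and 1.71% fell in captured cells. Chil3, a chitinase-like lectin of alternatively activated macrophages, fell by 4.196 (adjusted p = 0.000233) and Arg1, arginase, by 3.32 (adjusted p = 0.00668) in whole granuloma. Cd163, a scavenger receptor, fell by 2.47 (limma, adjusted p = 0.00145) in whole granuloma and by 3.75 (adjusted p = 3.55e-05) in captured cells. Retnla fell by 2.19 (adjusted p = 0.044) and 3.05 (adjusted p = 0.0133). The Retnla call in captured cells was lost with the 3′ to 5′ covariate (-2.836, adjusted p = 0.0544). General macrophage genes did not pass: in whole granuloma Csf1r differed by -1.20 (adjusted p = 0.12), Adgre1 by -0.47 (adjusted p = 0.425) and Cd68 by -0.31 (adjusted p = 0.76). The remaining calls, Cd14 (-2.02, adjusted p = 0.00653) and the only riser Gpnmb (1.835, adjusted p = 0.0102), are named after their values were seen. The mean of the list was 10.22 to 10.65 at day 7 and 9.16 to 10.21 at day 105 in whole granuloma, and 7.70 to 8.21 and 7.19 to 7.72 in captured cells.

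Of 14 neutrophil genes, 3 fell in whole granuloma and 0 in captured cells: S100a9 by 2.32 (adjusted p = 0.0443), S100a8 by 2.05 (adjusted p = 0.0233) and Prtn3 fell by 1.055 (adjusted p = 0.0244). The mean of that list was 7.40 to 8.50 at day 7 and 6.91 to 7.71 at day 105 in whole granuloma, and 5.39 to 6.57 and 5.32 to 5.35 in captured cells. Of 15 dendritic cell genes 1 fell in each tissue, beside the same 7.84% and 1.71% of all probe sets. It was Fscn1, the actin-bundling protein of mature dendritic cells (-1.39, adjusted p = 0.0196, and -1.52, adjusted p = 0.0262, limma). The Fscn1 call in captured cells was lost with the 3′ to 5′ covariate (-1.315, adjusted p = 0.109). The mean of the list was 7.11 to 7.37 and 6.78 to 7.52 in whole granuloma and 5.45 to 5.60 and 5.28 to 5.50 in captured cells.

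Of 16 plasma cell genes, 5 rose in whole granuloma and 2 in captured cells, and 0 fell, beside 5.86% and 2.36% of all probe sets that rose, with medians of 0.79 and 0.61. In whole granuloma these were Tnfrsf13b, the receptor TACI (2.75, adjusted p = 2.29e-05), Prdm1, which encodes the plasma cell regulator Blimp-1 (2.10, adjusted p = 0.00188), Edem1 of protein quality control (1.78, adjusted p = 0.00529), Irf4 (1.56, adjusted p = 0.0198) and Slamf7 (1.06, adjusted p = 0.0439; named after its value was seen), while Sdc1, the surface marker CD138, differed by 0.59 (adjusted p = 0.275). In captured cells they were Tnfrsf13b (1.55, adjusted p = 0.0239) and Edem1 (1.51, adjusted p = 0.0439), and both were lost on quantile-normalized values (1.39, adjusted p = 0.0627, and 1.27, adjusted p = 0.108). The mean of the list went from 10.45 to 10.68 at day 7 to 11.09 to 11.93 at day 105 in whole granuloma, and was 9.34 to 9.76 at day 7 and 9.76 to 10.87 at day 105 in captured cells. Of 13 B cell genes 0 were called in either tissue; the largest were Blnk (1.46, adjusted p = 0.0545) and Spib (-1.27, adjusted p = 0.0775), and the mean of the list was 7.61 to 8.03 at day 7 and 7.25 to 8.42 at day 105 in whole granuloma, and 5.99 to 6.36 and 5.51 to 6.23 in captured cells.

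**Figure D5:**
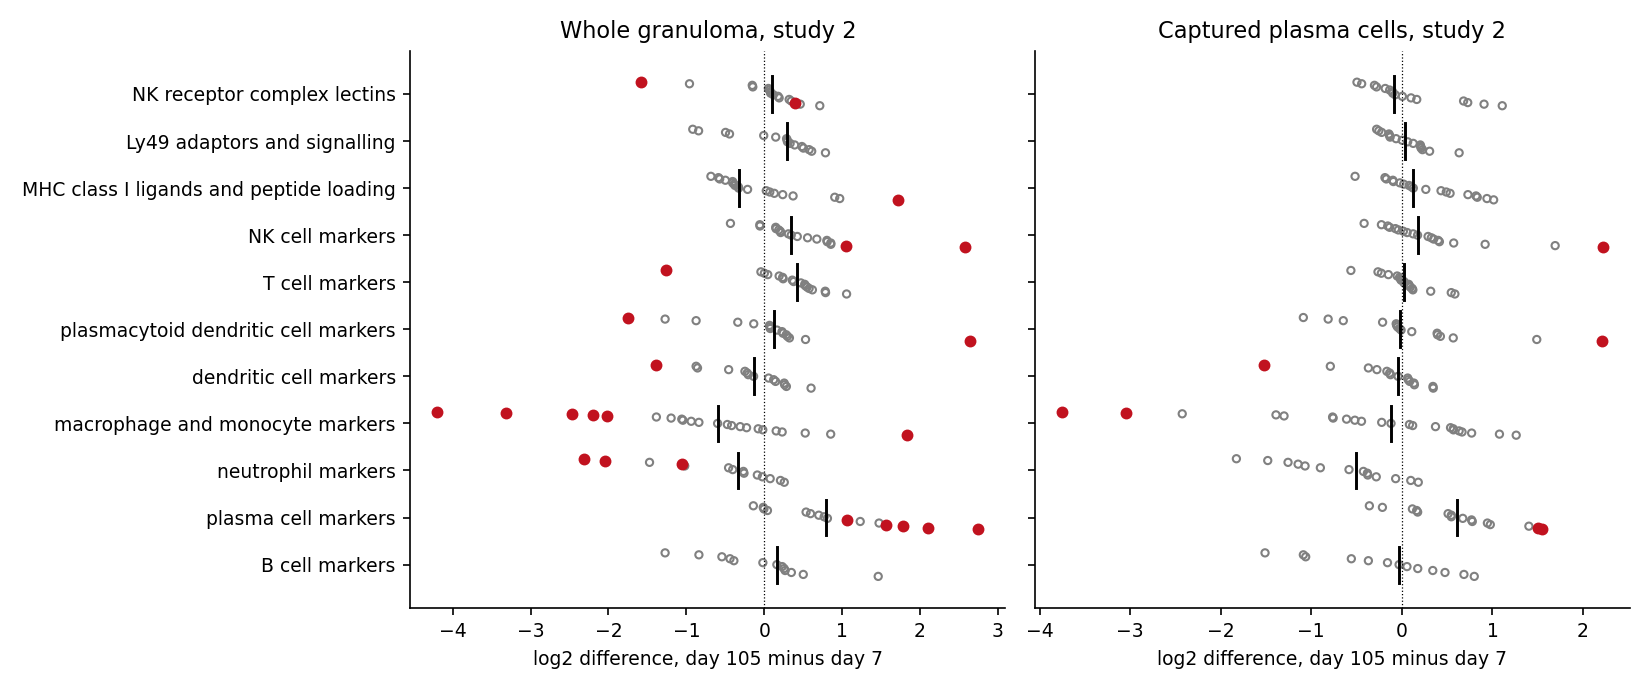
Log2 difference of day 105 minus day 7 in study 2 (deposited values) for each measured gene of the 11 lists, in whole granuloma (left) and captured plasma cells (right); filled red points passed adjusted p 0.05, open points did not, and bars are list medians. Plasma cell genes lie mostly to the right and macrophage genes mostly to the left in whole granuloma.

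Many of these list calls depend on few specimens. Only the 6 fits without a code of day 7 or day 105 of study 2 can move these differences. The rest of the 33 fits change only the estimated spread and the adjustment, so a count out of 33 overstates how firm a call is. Of the 20 calls named by the rule in whole granuloma of study 2, 10 held in all 33 fits without 1 code: H2-T24, Ctsw, Ly6d, Atp1b1, Chil3, Arg1, Cd163, Tnfrsf13b, Prdm1 and Edem1. With arrays fitted singly, Arg1 (adjusted p = 0.0756) and Edem1 (adjusted p = 0.0628) were lost too, as were Olr1, Clec2h, Thy1, Fscn1, Retnla, S100a9, S100a8 and Irf4, and on quantile-normalized values Olr1, Thy1 and S100a9. The other 10 were lost in 2 to 9 fits: Gzmb in 2 (adjusted p 0.219 without code 1 of day 105), Irf4 in 3, Prtn3 in 3, Thy1, Fscn1 and S100a8 in 4, Olr1 and Clec2h in 5, Retnla in 6 and S100a9 in 9. Of 8 calls in captured cells (Klra2 included), Ly6d and Cd163 held in all 33; Ctsw was lost in 3 (adjusted p 0.102 without code 3 of day 105), Retnla in 1 (0.342 without code 1 of day 7), Tnfrsf13b and Fscn1 in 4 each and Edem1 in 13 (up to 0.221, 0.179 and 0.248, each without code 1 of day 7).

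Genes whose level followed each member most closely were taken as those with the highest Pearson r in both tissues of study 2 (15 specimen averages each; the lower of the 2 values is given), which is a description, because specimens share days and arrays. For Klra17 these were Gdap2 (0.89), Bmi1, a Polycomb repressor (0.87), Chid1 (0.86), Tmem106b (0.86) and Serpini1, the protease inhibitor neuroserpin (0.85). Without the specimens of day 105 (12 left) Serpini1 kept 0.80 in whole granuloma and 0.91 in captured cells, and in study 1 it reached 0.72 (8 specimens) and 0.93 (15). The other 4 gave 0.68 to 0.81 and 0.69 to 0.76 without day 105. In study 1 Gdap2 gave 0.75 and 0.88 and Bmi1 0.61 and 0.78, but Chid1 gave 0.42 and 0.28 and Tmem106b 0.32 and 0.65. Serpini1 rose from 7.30 to 10.59 in whole granuloma and from 5.99 to 9.38 in captured cells as means of days 7 and 105. For Klra5 they were Gfra3 and Ppp1r17 (0.93 each), Tmem163 (0.91), Neurog3, a regulator of endocrine cell fate (0.90), and Cdh10, a cadherin (0.90). Without day 105 their r fell to between -0.17 and 0.55, so that likeness rests on the specimens of day 105. For Klra8 they were Trpm5, Sh3pxd2a, Nat3, Frmd5 and Rph3a (0.88 to 0.92), which in study 1 ranged from -0.69 to 0.59. Klra8 lay at the floor, and in captured cells of study 2 code 2 of day 49 stood at 4.209, while the other days reached 3.06 at most. Its likeness without that specimen was not computed.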

How the data were processed

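RNA of captured cells and whole sections was amplified linearly and hybridised to Affymetrix mouse arrays, per the labels' protocols. The deposited table holds log2 values of 22690 probe sets on 82 arrays; the submitters' processing notes name RMA and Partek, with versions not given in the sources used here. Gene symbols came from GEO's platform annotation (20393 probe sets with 1 symbol, 691 with several, 1606 with none), updated by gene identifier for 20364. The 64 control probe sets were left out. Arrays of 1 specimen code and tissue were averaged, giving 53 averages from 33 codes, 20 of them with both tissues. An array without a code and code 003 each stayed a specimen of their own. limma 3.58.1 (R 4.3.3) was fitted once over all 19 groups, leaving 34 degrees of freedom, with the code as a random block because tissues share codes (correlation 0.088 deposited, 0.080 quantile-normalized). P-values were adjusted by Benjamini and Hochberg over 22626 probe sets, with a threshold of 0.05. Day 104 of study 1 has 1 specimen, which was assumed to vary like the others. The fit was tested on simulated data.

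The 3 genes and the 11 gene lists were chosen with earlier results of these data known. For a listed gene with several probe sets, the one of highest average level was used. Named were all Klra probe sets and, of each list, up to 4 genes past the threshold with the largest change from day 7 to day 105 in whole granuloma of study 2, else the 2 largest, plus Tyrobp, Hcst, Fcer1g, Ncr1, Adgre1, Cd68, Csf1r, Cd3e and Sdc1. Siglech and Ly6g were also to be named, but neither was among the measured genes of its list. Above the array median in at least 3 averages were 14304 probe sets, among them Klra17 and Klra5 but not Klra8. Alternatives were other scalings, this filter, no block, single arrays, a covariate of the 3′ to 5′ difference, code 5 of day 7 of study 1 as 2 specimens, and leaving out each code. Most Klra probe sets may also bind transcripts of related Klra genes. Start windows came from RefSeq.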

Additional observations from a re-analysis of the deposited data

Results flagged for a closer look

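For 2 Klra probe sets, the step from whole granuloma to captured cells was not equal in both studies, by the interaction term of the fit: it was larger in study 2 by 1.848 (log2, adjusted p = 0.000795) for the probe set listed for Klra3 and Klra9, and by 0.271 (adjusted p = 0.0139) for 1 of the 2 of Klra7. The first call was lost on the deposited values (0.868, adjusted p = 0.0607), with the 3′ to 5′ covariate (1.25, adjusted p = 0.0634) and without code 4687 (1.06, adjusted p = 0.0631). The Klra7 value turned to -1.142 on the deposited values, was 0.01 (adjusted p = 0.972) after median centring and lost its call without code 4687 (0.22, adjusted p = 0.0546). In captured cells of day 17 of study 1, 1 of 4 specimens stood apart for Klra1, at 2.749, by Dixon's criterion, which chance meets in about 1 of 20 groups. The 4 specimens lay between 2.749 and 2.806, at a mean percentile of 0.735, the floor of the array.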

How the results depend on the processing

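On the deposited values, these tissue differences had the other sign: for study 2 Klra17 -0.142, Klra5 -0.722, Klra8 -0.826, Klra3 with Klra9 -0.427 and Klra7 -1.046, for study 1 Klra8 -0.027, and for the difference between studies Klra17 -0.213, Klra5 -0.855, Klra8 -0.892 and Klra7 -1.142. Array medians differ between the tissues on that scale. The Klra17 call in study 1 was lost there (0.295), without the replicate block (0.958, adjusted p = 0.0588), with code 5 of day 7 as 2 specimens (0.923) and without day 104 (0.401). Klra5 in study 2 passed with centring (1.163) and single arrays (0.575), and Klra8 in study 1 with centring (0.714) and the 3′ to 5′ covariate (0.286). The Klra5 change over days in study 1 was 0.24 with centring in whole granuloma and 1.166 with quantile normalization in captured cells; that of Klra8 in whole granuloma of study 2 was 0.089 and 0.288 with quantile normalization and centring.

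Counts of probe sets called moved by over 1.5 times as follows. The tissue difference of study 2 gave 9713 with the 3′ to 5′ covariate (14810 without it), and the difference between studies 18732 on deposited values (9571 otherwise). Captured cells of study 2 at day 105 against day 7 gave 1985 with single arrays and 1468 without captured code 2 of day 49, an alternative chosen after seeing the data (922 otherwise). In study 1, day 104 against day 7 gave 31 in whole granuloma and 1077 in captured cells with single arrays, and 189 in captured cells without that sample of day 49 of study 2 (0 and 82 otherwise).

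Leaving out 1 code in turn gave 1460 (without code 2 of day 105) to 4316 calls in whole granuloma of study 2 over days; without codes 1 and 2 of day 7 and code 3 of day 105 the counts were 1855, 1709 and 1702. Captured cells of study 2 gave 175 (without code 1 of day 7) to 1424 (code 3 of day 7), and 1404, 499 and 601 without code 2 of day 49 and codes 2 and 3 of day 105. Study 1 gave 0 to 45 in whole granuloma and 47 to 176 in captured cells, the 45 and the 47 both without code 3 of day 7. Tissue differences ranged from 0.401 to 1.067 for Klra17 in study 1, 0.355 to 1.539 for Klra17 between studies and 0.518 to 0.646 for Klra5 in study 2. The change over days, given without a test, ranged for Klra17 from 6.066 to 6.556 in whole granuloma and 5.702 to 6.489 in captured cells of study 2, and for Klra5 from 1.274 to 3.678 and 1.587 to 4.494. Among alternatives for named genes other than the members, 3240 kept direction and side of the threshold, 104 lost a call, 40 gained one and 41 turned in sign. Most alternatives left out 1 code, and a code outside the compared groups cannot move a difference. Many of the values also had no call to lose, so the 3240 overstates how firm they are. The causes were not tested.

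Besides the 3 above, the turns concern values that did not pass. The tissue difference of Klra3 with Klra9 in study 1 ranged from -0.694 to 0.282, the latter without day 104. Day 105 against day 7 in captured cells turned with the 3′ to 5′ covariate for Tyrobp (0.127), Hcst (0.201), Cd3e (0.028), Klra16 (-0.4 and -0.064) and Klra7 (-0.236 and -0.139). With quantile normalization it turned for Fcer1g (-0.117), Cd3e (0.024), Adgre1 (-0.005) and Klra1 (0.008), and with centring for Cd3e (0.015) and Klra1 (0.025). In whole granuloma Klra1 was 0.031 with centring and Klra1 with Klra22 -0.003 with the covariate. Leaving out 1 code, captured cells gave -0.8 to 0.084 for Olr1, -0.537 to 0.02 for Tyrobp, -0.306 to 0.179 for Fcer1g, -0.277 to 0.035 for Hcst, -0.268 to 0.101 for Ncr1, -0.105 to 0.241 for Thy1, -0.12 to 0.044 for Cd3e, -0.041 to 0.4 for Adgre1 and -0.074 to 1.06 for Cd68. Among Klra probe sets they gave -0.022 to 0.083 and -0.042 to 0.092 for Klra16, -0.028 to 0.088 for Klra7, -0.025 to 0.027 for Klra1 and -0.12 to 0.052 for Klra1 with Klra22.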
